A study of Mus musculus with 2 samples.

Results

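The genes described here are 64 protein-coding genes of synaptic adhesion and of the cadherin family, scored against a list of anti-Nr4a2 ChIP-seq peaks from BV2 cells. They were chosen by symbol, as all RefSeq coding genes on mouse chromosomes 1 to 19 whose names begin with Nrxn, Nlgn, Cntn, Cdh, Lrrtm, Flrt, Lsamp, Ntm, Opcml, Ptprd, Ptprn, Ptprs or Nbea, and they are 64 of 20665 coding genes on those chromosomes. The prefixes also bring in Ntmt1, which encodes an N-terminal methyltransferase and no adhesion protein, 5 cadherin-related genes (Cdhr1 to Cdhr5) and 3 neurobeachin genes, which encode intracellular scaffolds. The group was proposed with this peak list in view, so its peak counts and densities are given as descriptions and carry no test.

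BV2 is an immortalised line of mouse microglia, the resident macrophages of the brain, and Nr4a2 (Nurr1) is an orphan nuclear receptor that binds DNA. The data comprised 1 library of DNA precipitated with the anti-Nr4a2 antibody and 1 library of input DNA from the same line, with 20365794 and 22520884 tags after duplicate removal. The names of both libraries in the file header carry H2O2, while the labels name no treatment and no time. With 1 library of each kind, no value here has a measure of variation between cultures, and because the data hold no expression values the microglial label could not be compared with marker genes.

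Synapses are held together by pairs of membrane proteins that meet across the cleft. Neurexins and receptor phosphatases of the Ptprd and Ptprs type sit mainly on the presynaptic side, and neuroligins, LRRTM proteins and other leucine-rich repeat proteins bind them from the postsynaptic side. Contactins and IgLON proteins are immunoglobulin-domain proteins, most of them anchored by a lipid, and contactins pair with the contactin-associated CNTNAP proteins along axons. Cadherins bind their own kind on neighbouring cells in the presence of calcium and connect through catenins to actin. Many of these genes are known for very long introns. Their records had a median length of 160.7 kb, against 17.5 kb over all coding genes, and 19 of the 64 measured 500 kb or more.

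None of the members' promoter windows was overlapped by a peak. RefSeq's promoter table, built on GRCm38.p6 (mm10), held 61 windows, from 250 bases before to 50 after an annotated start, for 45 of the 64 genes. A peak overlapped 0 of these 61 and 136 of all 31396 windows on chromosomes 1 to 19 (0.433%). The summits closest to a member's annotated start belonged to Ptprn2, 307 bp before it, and to Flrt2, 1060 bp inside the gene. The 250 bases before each of these starts are shown. The Ptprn2 stretch lies beside its peak, and the Flrt2 stretch lies on the other side of the start from its peak. Capitals mark the word GGGCGG, read on both strands (reverse complement CCGCCC), which is known as a GC box.

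Ptprn2, + strand, chr12:116485470-116485719: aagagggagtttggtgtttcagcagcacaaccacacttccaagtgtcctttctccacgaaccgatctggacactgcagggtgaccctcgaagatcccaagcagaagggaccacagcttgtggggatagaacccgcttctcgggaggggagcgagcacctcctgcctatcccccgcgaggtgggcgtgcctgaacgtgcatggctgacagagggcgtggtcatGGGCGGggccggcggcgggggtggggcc
Flrt2, + strand, chr12:95691976-95692225: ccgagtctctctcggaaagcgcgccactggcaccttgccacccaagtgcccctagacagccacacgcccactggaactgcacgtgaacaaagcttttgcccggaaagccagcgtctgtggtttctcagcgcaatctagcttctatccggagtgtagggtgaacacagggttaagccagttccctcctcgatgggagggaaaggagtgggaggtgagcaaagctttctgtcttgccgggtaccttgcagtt

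The Ptprn2 stretch was 63.6% G and C with 15 CG dinucleotides and held 1 GC box. The Flrt2 stretch was 57.2% G and C with 12 CG dinucleotides and held no GC box. The same word occurred in the 250 bases before 27.9% of the members' starts and 32.7% of all starts. The Nr4a monomer word AAAGGTCA (reverse complement TGACCTTT) was found in 0 of the 61 member windows and in 1.51% of all windows. Its core of 6 bases, AGGTCA (reverse complement TGACCT, part of the longer word), occurred in 7 of the 61 (11.5%) and in 16.3% of all windows, the 7 belonging to Ptprn, Ntmt1, Cdhr5, Cdhr2, Cdh18, Lsamp and Ptprs. These matches describe the letters in the windows and nothing about binding.

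At gene ends the members held 1 peak. Ptprn2, which encodes a phosphatase-like protein of dense-core vesicles, was the 1 member of 64 (1.56%, exact 95% interval 0.0396 to 8.40) with a summit within 1000 bp of either end, against 2.41% of all coding genes. That peak lay on chromosome 12 at 116485289 to 116485452, ended 18 bp before the stretch printed above, and had 10 ChIP tags over the summit (its pileup). Its deposited fold enrichment over the local background was 2.96 and its −log10 q was 0.76, so its q was above 0.05. The next summit outward was in Flrt2, which encodes a fibronectin and leucine-rich repeat protein that binds Unc5 and latrophilin receptors. It lay 1280 bp inside the gene's end, on chromosome 12 at 95693157 to 95693628, with 12 tags, a fold of 3.50 and a −log10 q of 1.39. Intervals here and below cover counting error in the observed count only. For ratios, they take the expected count as fixed, although it also comes from counted peaks, and they treat summits as independent.

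Inside the genes, 24 of the 64 members (37.5%, exact 95% interval 25.7 to 50.5) held at least 1 summit, against 11.7% of all coding genes. Length went with this difference. Of the 19 members of 500 kb or more, 12 (63.2%) held a summit, against 57.9% of all coding genes of that length. In the class of 200 to 500 kb it was 4 of 9 members, against 48% of coding genes. Of the members of 50 to 200 kb, 7 of 18 held a summit, against 26.1%, and of those under 50 kb 1 of 18 did, against 5.95%. Among the 20 genes outside neuronal families that were nearest in length to each member, 37.6% held a summit, nearly the members' own share. The share of members with a summit was thus close to that of coding genes of the same length.

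**Figure D1:**
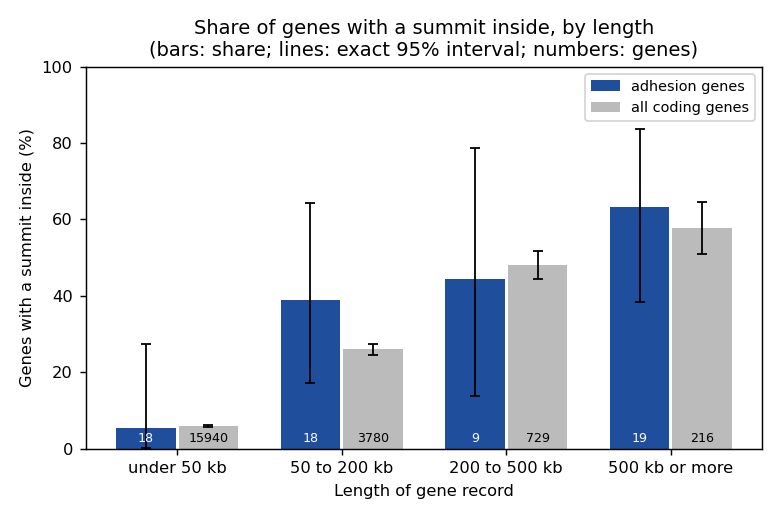
Share of genes with at least 1 peak summit inside the gene record (vertical axis, percent) in 4 classes of gene length, for the adhesion genes (blue) and all coding genes of chromosomes 1 to 19 (grey). Lines are exact 95% intervals and the numbers at the foot of the bars are genes; both shares climb with length, and at 500 kb or more they are 63.2% and 57.9%.

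The members held 79 summits in 27.9 Mb, or 2.83 per Mb (95% Poisson interval 2.24 to 3.53). The chromosomes as a whole held 6996 peaks, 2.87 per Mb between their first and last genes. At the density of the 5 Mb around each gene (2.5 Mb on either side, the gene left out), the members would have held 75.7, so the ratio of observed to expected was 1.04 (95% interval 0.827 to 1.30). For all coding genes the same ratio was 1.07 (1.04 to 1.11), and for the genes of like length outside neuronal families it was 0.775. At the density of those genes of like length the members would have held 65.3, a ratio of 1.21 (0.958 to 1.51). Without Ntmt1 and the neurobeachin and Cdhr genes, this ratio was 1.05 (0.808 to 1.34). The ratio to the surroundings was then 0.925 (0.714 to 1.18). For the 4 longest members, Nrxn3, Lsamp, Cntnap2 and Ptprd (8.32 Mb together, 1612.2 to 2270.5 kb each), the genes nearest in length were shorter, with a median of 1205.4 kb. The ratio to genes of like length rested on the 3 members with the most summits. Without these, Nrxn3, Ptprn2 and Nbea, it was 0.734 (0.531 to 0.989). Leaving out the highest counts lowers it by construction, and the comparison genes were not trimmed in the same way. The same removal took the ratio to the surroundings to 0.885 (0.64 to 1.19). Without chromosome 12 the ratio to genes of like length was 0.92 (0.683 to 1.21). The median density was 0 per Mb in the members and over all coding genes.

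The 79 summits were very unevenly shared. Nrxn3 held 14, Ptprn2 12, Nbea 10, Cntn1 7, and Cdh18 and Cntnap4 5 each, followed by Cntnap2 with 4. These 7 genes held 57 of the 79. The top 5 alone had 60.8% of the summits in 14.99% of the members' sequence. Of the leading 3, Ptprn2 and Nbea encode proteins of vesicles and membrane traffic and not adhesion receptors. Another 5 genes held 2 each, namely Cdh4, Cdh8, Nbeal1, Cdh11 and Cdhr3, and 12 held 1. Of the 28 members of 200 kb or more, 12 held none. Together these 12 span 9.98 Mb, in which the density of their surroundings would give 4.58 summits, 3.63 of them in Ptprd. The 12 were picked for holding 0, so a count below that follows from the choice. Over all coding genes, 48% of those of 200 to 500 kb and 57.9% of those of 500 kb or more held a summit.

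**Figure D2:**
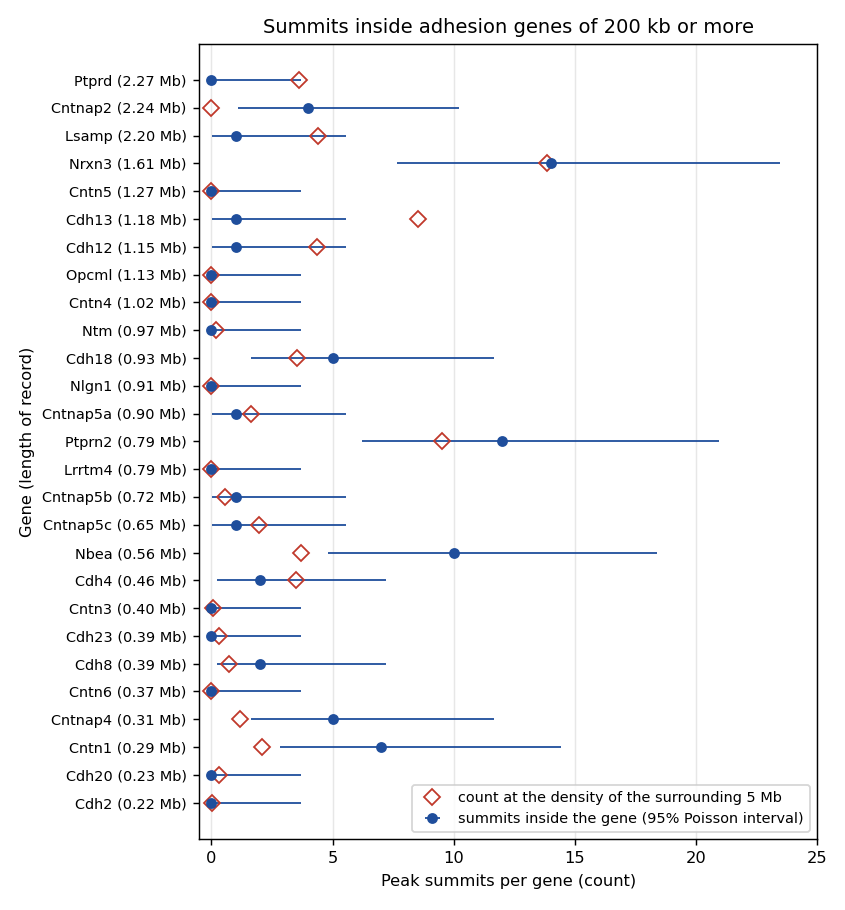
Peak summits inside 27 adhesion genes of 200 kb or more (blue points with 95% Poisson intervals, horizontal axis, count) and the count that the density of the surrounding 5 Mb would give (open red diamonds), with genes ordered by length. Nrxn3 lies at its diamond (14 against 13.9), Nbea, Cntn1, Cntnap4 and Cntnap2 lie above theirs, and Cdh13 lies below (1 against 8.53).

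Neurexin genes encode presynaptic receptors. Nrxn3, on chromosome 12 at 88722701 to 90334935, had 8.68 peaks per Mb, and its surroundings had 8.60. Its 14 summits ran from 10.2 kb inside the lower end of the record to 35.8 kb from the other end. In order along the chromosome they had 9, 13, 10, 11, 8, 9, 8, 9, 9, 12, 9, 8, 7 and 10 tags. Their folds ran from 2.69 to 4.67, and 5 of them had a q of at most 0.05. The highest fold, 4.67 with 12 tags and a −log10 q of 2.18, was at 89918070 to 89918454. Nrxn2, on chromosome 19 and 114.5 kb long, held 1 of 8 tags and 2.79-fold (−log10 q of 0.541), against 0.778 expected. Both genes thus held about as many summits as their surroundings would give, 14 against 13.9 and 1 against 0.778.

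The receptor phosphatase genes fell at opposite ends of the range. Ptprn2 held 12 summits in 792.5 kb, 15.1 per Mb, in the densest surroundings of any member at 12 per Mb, so that 9.51 were expected. In order along the chromosome they had 14, 7, 9, 9, 10, 9, 11, 10, 11, 9, 10 and 8 tags. Their folds ran from 2.69 to 4.45, the highest at 116507243 to 116507406 (−log10 q of 2.36), and 3 summits lay within 5.07 kb of each other, at 117006243 to 117011519. Ptprd, a presynaptic organiser gene on chromosome 4 and at 2270.5 kb the longest member, held 0 summits (95% upper bound 3.69), against 3.63 expected from the 8 peaks around it. Ptprs and Ptprn, of 64.1 and 17.5 kb, held none, with 0.218 and 0.0454 expected.

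Of the neuroligin, LRRTM and FLRT genes, whose products act largely as postsynaptic partners, Flrt2 alone held a summit. Nlgn1, which encodes a neuroligin of excitatory synapses, is 911.1 kb long on chromosome 3 and had neither a summit inside nor 1 in the 5 Mb around it, and its nearest summit was 3768.1 kb away. Lrrtm4, on chromosome 6 and 791.3 kb long, was likewise without any in or around it. Nlgn2, Lrrtm1, Lrrtm2, Lrrtm3, Flrt1 and Flrt3 also held 0, and each would have held fewer than 1 at the density of its surroundings. Flrt2 held the 1 summit described above, against 0.969 expected.

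Contactin genes, whose products are lipid-anchored axonal adhesion proteins, held 8 summits, of which Cntn1 had 7 and Cntn2 had 1. Cntn1, on chromosome 15 at 92051152 to 92341967, had the highest density of the members of 200 kb or more, 24.1 per Mb (95% interval 9.68 to 49.6), against 7.20 per Mb around it. Its summits had 10, 13, 9, 11, 7, 8 and 7 tags in order along the chromosome, and folds of 3.92, 4.98, 2.69, 4.31, 2.87, 3.23 and 2.87. The last 5 of these lay within 41.3 kb, at 92255224 to 92296700, and of all 7, 3 had a q of at most 0.05. The Cntn2 summit had 10 tags and a fold of 3.85. Cntn3, Cntn4 and Cntn6, all on chromosome 6, and Cntn5, on chromosome 9, held 0, and these genes measured 401.3, 1022.5, 370.7 and 1270.6 kb. In the 5 Mb around Cntn4, Cntn5 and Cntn6 there was no peak, and around Cntn3 there was 1.

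The CNTNAP genes held 12 summits against 5.98 expected from their surroundings, a ratio of 2.01 (95% interval 1.04 to 3.50). At least 1 summit lay in 5 of the 7 genes. The ratio was 1.34 (0.577 to 2.64) without Cntnap2 and 1.46 (0.587 to 3.01) without Cntnap4. For Cntnap2 the surroundings gave an expected count of 0, so all its 4 summits raised the ratio. At the density of genes of like length, Cntnap2 would have held 4.12 summits and Cntnap4 0.954. Cntnap5a, Cntnap5b and Cntnap5c would have held 1.96, 1.39 and 1.71. By that measure Cntnap4 alone of these 5 held more than expected. Cntnap4, which encodes a neurexin-like protein of interneuron synapses, had 5 summits in 312.9 kb on chromosome 8, against 1.19 expected. Those 5 had 8, 12, 11, 9 and 7 tags and folds of 3.20, 4.67, 4.27, 3.59 and 2.87, and were spread over the gene, with 37.4 kb or more to the nearer end. Cntnap2, which encodes Caspr2 and is 2241.3 kb long on chromosome 6, had 4 summits, although its surroundings of 5 Mb had 0. Chromosome 6 held 47 peaks in all (0.314 per Mb), so 4 of those 47 lay in this gene. They had 10, 10, 8 and 10 tags and folds of 3.95, 2.96, 3.20 and 3.95, and 2 had a q of at most 0.05. Cntnap5a, Cntnap5b and Cntnap5c held 1 each, with 10 tags and folds of 3.95, 3.92 and 3.95, and Cntnap1 and Cntnap3 held 0.

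The IgLON genes were nearly without summits. Lsamp, on chromosome 16 and 2197.4 kb long, held 1, of 10 tags and 3.95-fold, at 41274062 to 41274243, against 4.39 expected. Opcml and Ntm, neighbours on chromosome 9 of 1134.7 and 968.5 kb, held 0, and their nearest summits were 3184.1 and 2146.3 kb from an end. In the 5 Mb around Opcml there was no peak and around Ntm there was 1. For the 3 genes together, 1 summit in 4.30 Mb stood against 4.59 expected (ratio 0.218, 95% interval 0.00552 to 1.21).

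Cadherin genes held fewer summits than their surroundings. The 23 genes had 15 summits in 6.28 Mb, against 26.5 expected, a ratio of 0.567 (95% interval 0.317 to 0.935), and 8 of the 23 held at least 1. Over all coding genes of 500 kb or more, the class of Cdh12, Cdh13 and Cdh18, the same ratio was 0.751 (0.675 to 0.834). Without Cdh13 the cadherin ratio was 0.781 (0.427 to 1.31). Cdh13, which encodes the lipid-anchored T-cadherin, contributed most to the cadherin gap, with 1 summit in 1184.9 kb (95% interval 0.0253 to 5.57) and 8.53 expected. Its summit had 7 tags and a fold of 2.87 and lay 123.5 kb from the lower end, while 11 summits lay within 1 Mb outside the gene. Cdh12 held 1 in 1149.5 kb, against 4.37 expected, and Cdh4, which encodes R-cadherin, 2 in 457 kb, against 3.48. In the other direction, Cdh18 held 5 in 928.6 kb against 3.53, with folds of 3.20, 3.20, 4.31, 3.95 and 2.87 on 8, 8, 11, 10 and 7 tags. Cdh8 held 2 against 0.708 expected and Cdh11 2 against 0.644. At the density of genes of like length, Cdh13, Cdh12 and Cdh18 would have held 1.97, 2.11 and 1.95. Cdh6 and Cdh9, also on chromosome 15, held 1 each, of 11 tags and 4.31-fold and of 8 tags and 3.20-fold. Cdhr3, a cadherin-related gene of 59.1 kb on chromosome 12, held 2 summits 3.78 kb apart, of 3.23 and 3.92-fold. Cdh10, Cdh12 and Cdh18 lie next to each other on chromosome 15, so their surroundings overlap and their expected counts are not independent. Among classical cadherins, Cdh1 (E-cadherin), Cdh2 (N-cadherin), Cdh3 (P-cadherin) and Cdh5 (the endothelial cadherin) held 0, and each had 0.495 or fewer expected.

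Nbea, the neurobeachin gene, had the strongest peaks found inside any member. Neurobeachin is a large scaffold protein that takes part in moving receptors to the membrane and is not itself an adhesion protein. The gene, on chromosome 3 at 55625195 to 56183748, held 10 summits, 17.9 per Mb, against 6.60 per Mb around it, so that 3.69 were expected. Of these, 4 lay within 25.1 kb near its middle, at 55894235 to 55919580, with 19, 14, 11 and 15 tags and folds of 5.45, 4.83, 4.10 and 5.30. The first and last of the 4 had −log10 q of 4.64 and 3.42 and were the 2 peaks inside members with a q of at most 0.001. All 4 also lay inside a long noncoding RNA record, Gm31914, that overlaps Nbea. Nbeal1 held 2 summits, of 4.60 and 3.23-fold, against 0.926 expected, and Nbeal2 held 0.

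**Figure D3:**
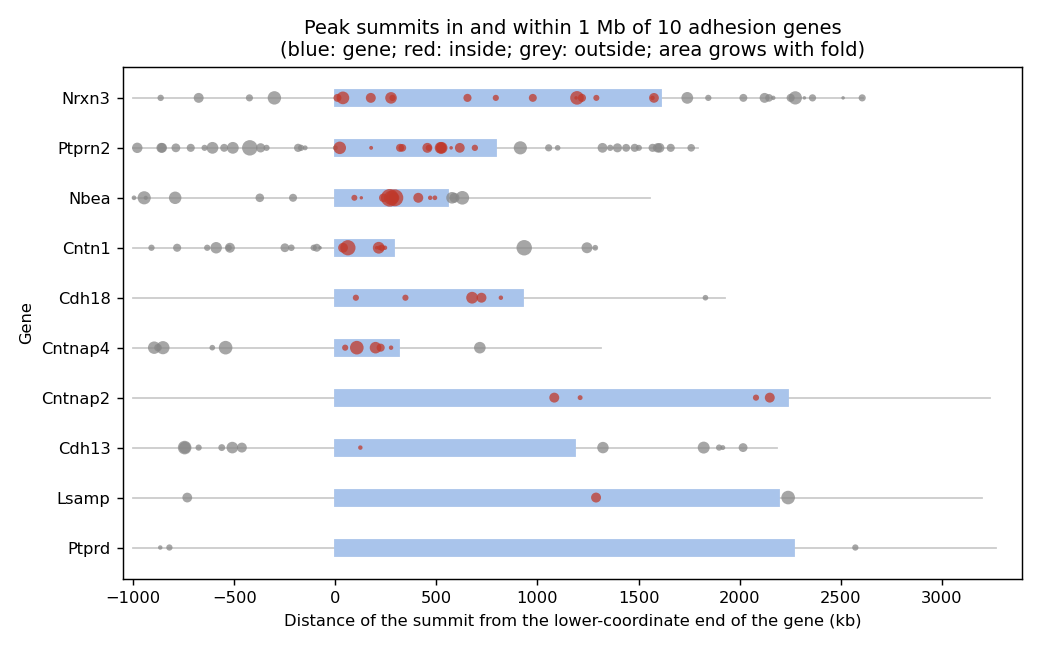
Peak summits (points, area growing with deposited fold) in 10 adhesion genes and within 1 Mb on either side, by distance in kb from the lower-coordinate end of the gene; blue bars are gene records, red points lie inside and grey points outside. The 4 summits near the middle of Nbea and the last 5 in Cntn1 lie close together, Cntnap2 has 4 inside and 0 outside, and Cdh13 has 1 inside and 11 outside.

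Across the 28 members of 200 kb or more, density inside the gene followed density around it, with a Spearman rank correlation of 0.765. Over the 917 other coding genes of that length it was 0.588. These points share the 1 peak list and, for neighbours, the same surroundings, and 6 of the 28 had no peak in the gene or around it. By count, 9 of the 28 held more summits than their surroundings would give and 13 held fewer. Some of the 13 had far less than 1 expected, such as Cdh2 (0.0441) and Cntn3 (0.0803), so that holding 0 counted as fewer. The same split over other coding genes of that length is not given. Members also differed between chromosomes, but on those named here their densities did not rank as the whole chromosomes did. The 4 members on chromosome 12 held 29 summits, 11.3 per Mb, where the whole chromosome had 5.76 per Mb. Those on chromosome 15 held 15, 5.28 per Mb, where the chromosome had 6.38. The 5 members on chromosome 9 held 0 in 3.41 Mb, where the chromosome had 2.06 per Mb. The 6 on chromosome 6 held 4 in 4.86 Mb, 0.823 per Mb, where that chromosome had 0.314.

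**Figure D4:**
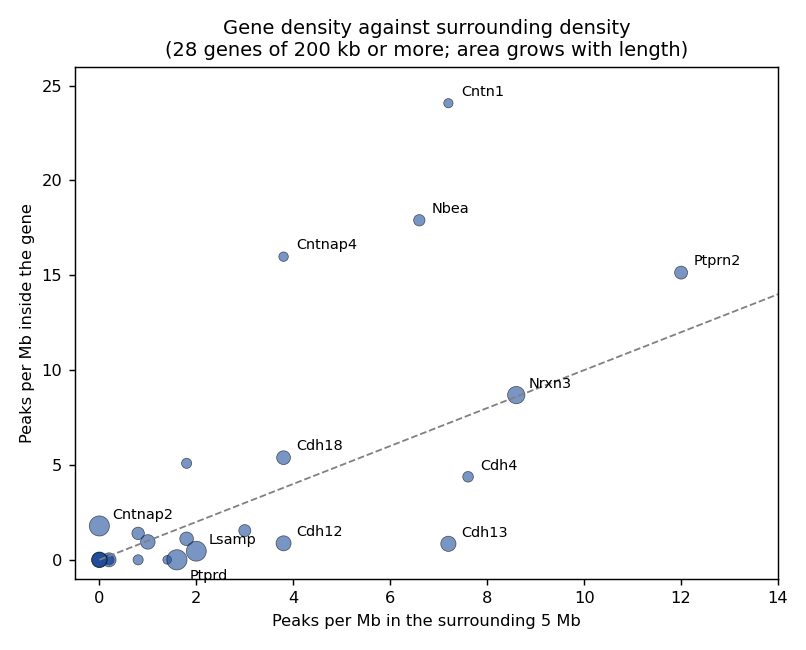
Peaks per Mb inside each of the 28 adhesion genes of 200 kb or more (vertical axis) against peaks per Mb in the surrounding 5 Mb (horizontal axis), with point area growing with gene length and the dashed line marking equal density. Nrxn3 lies on the line, Cntn1, Nbea and Cntnap4 lie well above it at 24.1, 17.9 and 15.98 per Mb, and Cdh13 lies below it at 0.844 per Mb.

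Peaks inside the members had the same median strength as the list as a whole, and most were low. The median fold was 3.59 in the members and 3.59 over all 6996 peaks, the median pileup was 10 tags in both, and the median widths were 189 and 190 bp. A q of at most 0.05 was reached by 39 of the 79 (49.4%, exact 95% interval 37.9 to 60.9), against 50.6% of all peaks. A q of at most 0.01 was reached by 9 (11.4%, 5.34 to 20.5), against 15.3%, and a fold of 5 or more by 2 (2.53%), against 3.74%. The 9 comprised 3 in Nbea, 2 in Nrxn3, and 1 each in Nbeal1, Ptprn2, Cntn1 and Cntnap4. The tallest had 19 tags and the lowest 7, on a genome-wide background of 1.79 tags.

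Most summits lay far from the gene starts in these mostly long records, and the same distances in other genes of like length are not given. In the 16 members with a summit and a known strand, the 65 summits were spread along the gene from its 5′ to its 3′ end. The first 25% of the gene length held 15, the stretch from 25 to 50% held 13, that from 50 to 75% held 19 and the last 25% held 18. The median distance to the nearest annotated start of the same gene was 188.9 kb, and 2 of the 65 lay within 10 kb of one, in Flrt2 and Cntn2. None of the 79 lay inside another coding gene, and 5 lay inside a noncoding gene, 4 of them in the Gm31914 record and 1 in Gm35280 within Cntnap2. Exons and introns were not separated because the gene table gives no exons.

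By nearest gene, 33 of the 64 members (51.6%, exact 95% interval 38.7 to 64.3) were the coding gene with the end nearest to at least 1 summit, against 20.5% of all coding genes and 43.8% of the genes of like length outside neuronal families. A total of 159 peaks had a member as nearest gene, and 92 of these lay outside every member. Flrt2 alone accounted for 32, of which 1 was inside it and the other 31 lay 131.5 kb or more from its ends. Over all 32 the median distance was 612.8 kb and the farthest was 1267.1 kb away, so most lay in the gene-poor stretches beside Flrt2. Cdh10 was nearest to 9, all outside it, and Cdh6 and Cdh8 to 8 each, with medians of 526.7, 697.7 and 829.7 kb. The peaks of highest fold inside or nearest to a member lay both inside and outside the genes. So did the 159 peaks nearest to a member, of which 92 were outside. Above 4.67-fold there were 9, of which 4 lay inside a member, 3 in Nbea and 1 in Cntn1. The other 5 lay at 26.02 kb from Cdh12 (6.76-fold), at 987.8 and 1251.0 kb from Flrt2 (6.46 and 5.38-fold), at 526.7 kb from Cdh10 (5.38-fold) and at 437.9 kb from Cdh11 (5.02-fold). Another 7 were tied at 4.67-fold with 12 tags. Of these, 1 lay in Nrxn3 and 1 in Cntnap4, and 5 lay outside members, at 69.7 kb from Nbea, at 1609.4 kb from Cdh20 and at 391, 478 and 610.7 kb from Flrt2. With all ties, 6 of 16 lay inside a member.

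Genes that work with these proteins but fall outside the naming rule were scored in the same way, beside 11.7% of all coding genes with a summit inside and 2.41% with a gene-end peak. Of 38 other synaptic ligands and receptors, 15 held a summit, where the shares of coding genes in the same length classes would give 12.7, and 1, Ptprf, had a peak at a gene end. Their 29 summits stood against 31.6 expected (ratio 0.919, 95% interval 0.615 to 1.32). Tenm3, which encodes a teneurin, held 7 against 6.49 expected, and Sdk1 held 5 against 5.07. Of 22 cytoplasmic partners such as catenins and scaffolds (Cask, on chromosome X, was left out), 9 held a summit, where the length classes would give 8.57, with 18 summits in all against 19.8 expected (ratio 0.909, 0.538 to 1.44), and Ctnnd2, the gene of δ-catenin, held 6 against 4.80. Of 19 other members of the cadherin superfamily, 4 held a summit, where the length classes would give 4.74, with 9 summits in all against 6.76 expected (ratio 1.33, 0.609 to 2.53). Fat1, which encodes a giant cadherin, held 3 against 0.453 and Dchs2 3 against 2.74.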

How the data were processed

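One list of peaks of 1 Nr4a2 ChIP library over 1 input was used. The submitters' processing notes list Bowtie2, ChIPseeker, MACS2 2.2.6 and mm10, and the version in the header of the list is MACS 2.1.4. Per the file headers, peaks were called at a p-value cutoff of 0.001 with a fragment length of 164 bp and 1 tag kept per position, and the larger library was scaled to the smaller. The deposited pileup is a coverage signal in extended ChIP tags at the summit. The deposited fold enrichment is a ratio over local background. The −log10 p-value and −log10 q-value are the authors' deposited values, although by its header the list should carry no q. Heights, folds and q-values only describe and filter peaks within this list.

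Genes were RefSeq records on GRCm38.p6. A summit inside the record counted as inside, and within 1000 bp of either end as a gene-end peak. Surroundings were 2.5 Mb on either side, clipped at the outermost genes of the chromosome. For each member, the 20 coding genes nearest in length were taken from 20049 outside the members and 67 neuronal symbol prefixes. Intervals are exact 95% Poisson or Clopper-Pearson intervals from scipy 1.17.1 under Python 3.11.15, with pandas 2.3.3, and counting was checked on simulated peaks. Named were members with a gene-end peak, the 12 with most summits, the 8 densest and 4 longest sparsest of 200 kb or more, those of that length without a summit, the 12 peaks of highest fold (16 with ties), and the neurexin, neuroligin, FLRT, LRRTM and IgLON genes, of which 1 is not reported here by name. Others, such as Cntn2, Cdh1, Nbeal2 and genes of the companion lists, were named after their values were seen, to account for their families. The members and lists were chosen with earlier results of these data known. The searches for GGGCGG and AGGTCA were added after seeing the data. Strand came from the promoter table, and 19 members without an entry there have none.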

Additional observations from a re-analysis of the deposited data

Results flagged for a closer look

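Nlgn3, a neuroligin gene on chromosome X that the rule leaves out because it takes chromosomes 1 to 19, held a peak called above the input. It lay at 101307633 to 101307796, inside the gene of 22.2 kb and 8.56 kb from its nearer end, with 12 tags, a fold of 3.85 and a −log10 q of 1.67.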

How the results depend on the processing

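The counts depended on the peak threshold. Members with a summit inside numbered 24 in the full list, 1 under a q limit of 0.001 and 1 under a limit of 5-fold. The gene-end count of 1 became 0 under q limits of 0.05 and 0.001 (0 and 0), 0 under the 5-fold limit, and 2 within 3000 bp. Members nearest to a peak numbered 33, then 3 and 4 under the limits of q 0.001 and 5-fold. Fewer peaks enter at these settings by construction. The ratio to the surroundings came to 0.666 (95% interval 0.0806 to 2.40) under the 5-fold limit, on 2 peaks. The ratio to genes of like length came to 1.59 (0.193 to 5.76) under a q limit of 0.001, also on 2 peaks. Added after seeing the data, it was 0.734 without the members with the most summits, Nrxn3, Ptprn2 and Nbea, and 0.92 without chromosome 12. The other alternatives run left each count within 1.5 times and each ratio or median fold within the interval or interquartile range of the reported value. No paired analysis was possible because there was 1 library of each kind. Sequencing depth was not varied, and its part in these counts was not tested.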
